A study of Homo sapiens with 12 samples.

Results

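The genes described here encode the aminoacyl-tRNA synthetases, the enzymes that join each amino acid to its transfer RNA. They were taken as the rows of the deposited count table whose gene symbol equals one of 36 listed symbols, and all 36 were found among the 13853 genes of the table. By name, 20 encode the enzymes of the cytosol and 16, with the suffix 2, those of mitochondria. GARS and KARS, counted with the cytosolic genes, are known to encode the glycyl and lysyl enzymes of both compartments. The RNA came from H1299, a human non-small cell lung cancer cell line, that was infected with viral vectors and drug-selected. The control group (shNT) carried a control vector and the knockdown group (shGAS41) a short hairpin against GAS41, the acetyl-histone reader encoded by YEATS4, with 3 RNA sequencing libraries each. The labels give neither the number of hairpins nor whether the 3 libraries of a group were grown as separate cultures. The p-values therefore reflect the spread between libraries, and that spread may be technical. The comparison asked which synthetase transcripts change when GAS41 is depleted.

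A synthetase activates its amino acid with ATP and then transfers it to the matching tRNA. The enzymes fall into 2 classes with unrelated catalytic folds, called class I and class II. In the cytosol 8 of the genes encode enzymes that are held together in the multisynthetase complex, and the others lie outside it, among them the valyl enzyme, which is known to bind elongation factor eEF1. Mitochondria translate a small set of respiratory chain proteins with their own tRNAs, and most of their synthetases are separate nuclear-encoded proteins. Transcripts of many cytosolic synthetases are known to be raised by the transcription factor ATF4 when amino acids run short.

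The libraries held between 58629147 and 72747010 counts over the listed genes. YEATS4 fell from 44.1, 47.1 and 47.6 CPM (a gene's counts divided by the library total after TMM scaling) in control to 1.66, 1.77 and 2.01 CPM in knockdown libraries, so the targeted transcript followed the labels. Of 13846 tested genes 68.1% were called at an adjusted p under 0.05, 34.5% lower and 33.6% higher, and each count below is to be read against these shares. Every adjusted p comes from the quasi-likelihood test of edgeR, adjusted by Benjamini and Hochberg's method over all tested genes. Of 5 epithelial markers KRT8 and KRT18 were listed and fell (log2 fold changes −0.67 and −0.44), and KRT19, EPCAM and CDH1 were not listed. All 3 mesenchymal markers, VIM (0.22), CDH2 (0.25) and FN1 (0.50), rose, and the part of these marker changes in the results below was not tested. None of 3 lung lineage markers (NKX2-1, SFTPC, SFTPB), 3 blood markers or 3 endothelial markers was listed, and of 3 fibroblast markers COL1A1 was listed, with a mean of 0.817 CPM in control libraries and 1.69 CPM after knockdown. Library 1 differed more from the others of its group than these did from each other: the chi-square per degree of freedom between libraries was 24.9 and 28.4 for knockdown library 1 against the others and 4.24 between those, and 13.96 and 23.4 for control library 1 and 9.40 between the others.

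Most synthetase transcripts were lower after knockdown, by modest amounts. Of the 36 genes 26 (72.2%) fell and 1 rose, where 34.5% of all tested genes fell and 33.6% rose. Among the cytosolic genes 16 of 20 fell and 0 rose (median log2 fold change −0.23), and 0 were higher at an unadjusted p under 0.05 or by DESeq2. Among the mitochondrial genes 10 of 16 fell and 1 rose, with a median of −0.34. The median over all tested genes was −0.0051. In either direction 27 of 36 members were called, a share close to the 68.1% of all tested genes, and 26 of these 27 calls were falls. In 27 members every knockdown library lay below every control library, and in 2 every one lay above, where 36.7% and 35.6% of all tested genes did so.

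**Figure D1:**
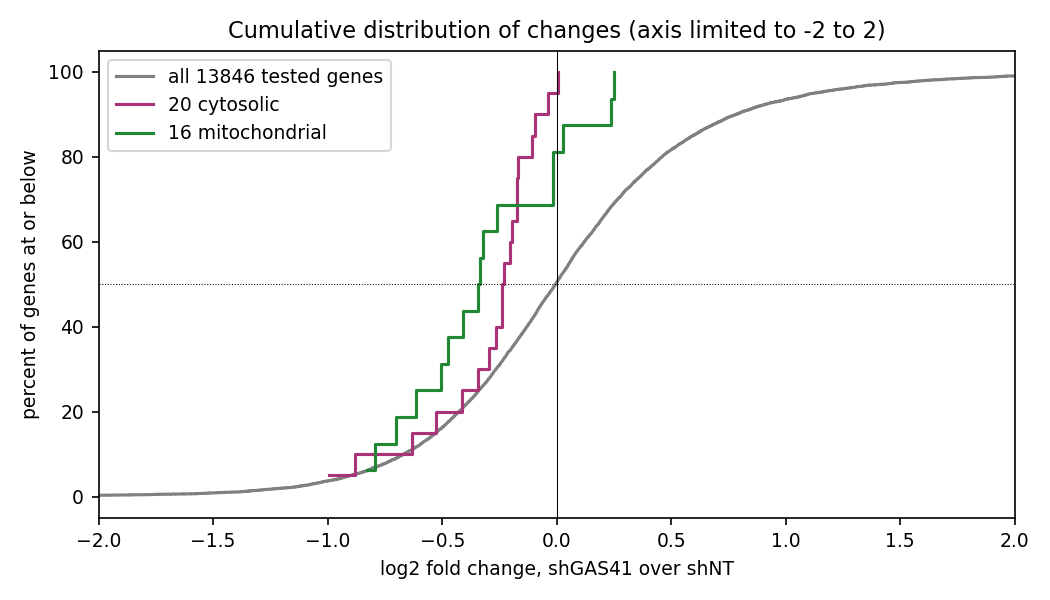
Cumulative distribution of the log2 fold change of shGAS41 over shNT (horizontal axis, limited to −2 to 2) as percent of genes at or below each value (vertical axis), for all 13846 tested genes, the 20 cytosolic and the 16 mitochondrial synthetase genes. Both synthetase curves lie left of the curve of all genes around the 50% line, with medians of −0.23 and −0.34 against −0.0051.

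The summed CPM of the 20 cytosolic genes was 5936, 5870 and 5828 in the control libraries and 4661, 4956 and 5049 in the knockdown libraries. The sum of the 16 mitochondrial genes was 751, 762 and 749 in control and 628, 632 and 640 in knockdown libraries. For neither compartment did the groups overlap. The sums in knockdown were 0.832 and 0.840 times those in control, so the summed level of both was lower by similar proportions. The mitochondrial sum leans on IARS2, the gene with the most CPM of the 16, which was not called. Its mean was 200 CPM in control and 197 CPM in knockdown libraries. A ratio without IARS2 was not computed. Knockdown library 1 had the lowest cytosolic sum, and without it 16 cytosolic and 10 mitochondrial genes were called lower. Without control library 1 these counts were 15 and 11. In bulk RNA a change per cell and a change in the mix of cells cannot be told apart.

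Called falls of at least 0.5 on the log2 scale were found in 4 cytosolic and 5 mitochondrial genes, 9 of the 36 in all, and in 16.1% of all tested genes. None of the 36 genes had a called rise of that size, against 17.9% of all tested genes. Tested against a minimum fold change of 1.2 (glmTreat), 12 of the 36 genes were lower and 0 higher, where 42.6% of all tested genes were called, 21.1% lower and 21.5% higher. These 12 were VARS, HARS, FARSA, NARS and WARS of the cytosol and FARS2, NARS2, VARS2, TARS2, LARS2, YARS2 and AARS2 of mitochondria. Of the 27 called members 24 kept their call in each of the other 12 alternatives.

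**Figure D2:**
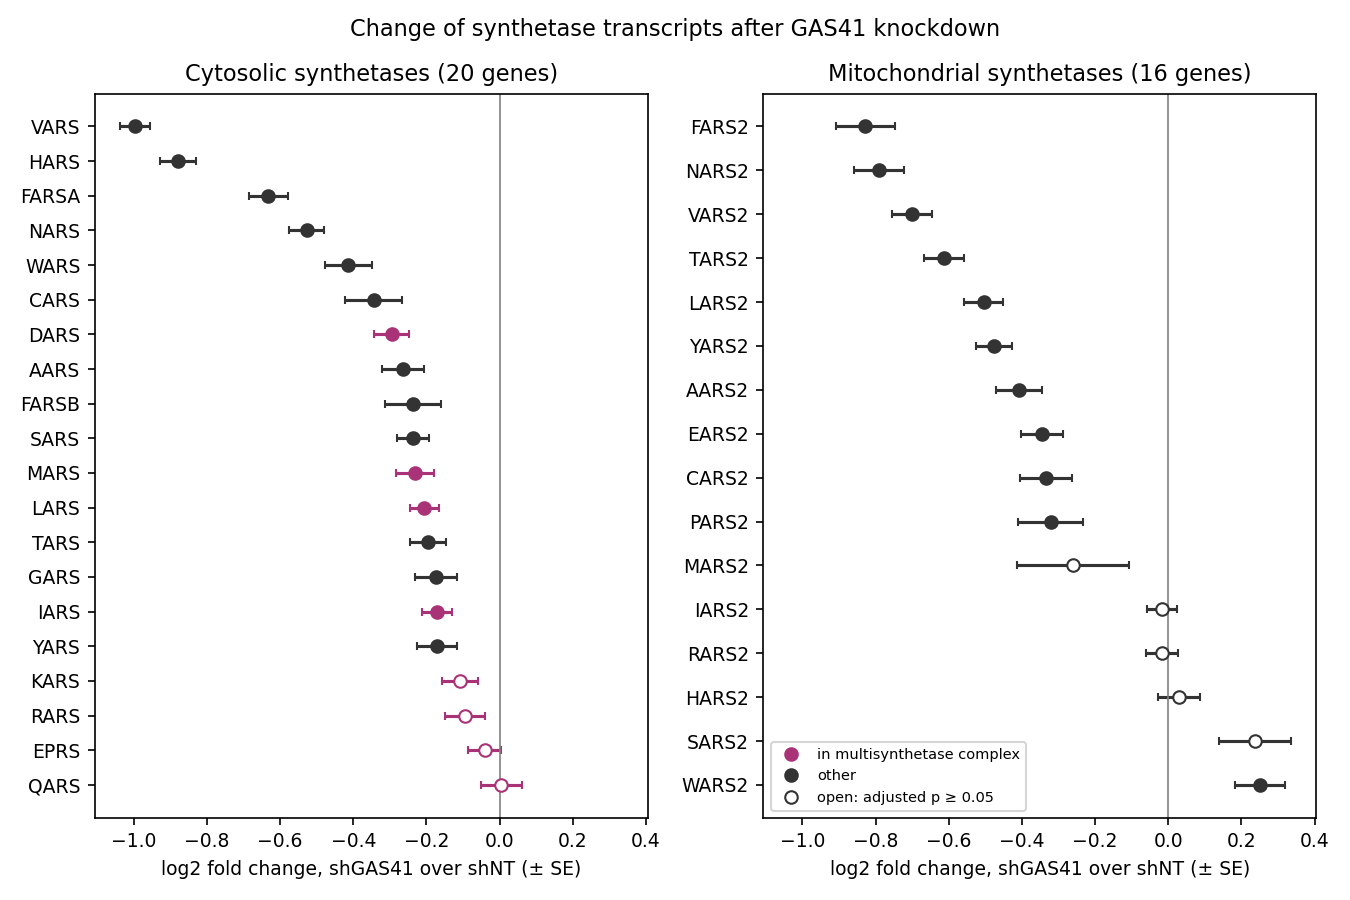
Log2 fold change of shGAS41 over shNT with its SE (horizontal axis) for each of the 20 cytosolic and 16 mitochondrial synthetase genes (vertical axis), with filled points for an adjusted p under 0.05, open points otherwise, and members of the multisynthetase complex in purple. VARS at −0.996 and HARS at −0.88 lie farthest left, and WARS2 at 0.25 farthest right.

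The largest fall was that of VARS (ENSG00000204394), which encodes the cytosolic valyl-tRNA synthetase, a class I enzyme. VARS was at 359, 375 and 351 CPM in the control libraries and at 180, 182 and 182 CPM in the knockdown libraries. The groups lay far apart, and the knockdown libraries were nearly equal. VARS fell by 49.9%, or −0.996 ± 0.042 on the log2 scale (SE; adjusted p = 3.57e-08), and 3.73% of all tested genes fell as much or more. VARS2, which encodes the mitochondrial enzyme for the same amino acid, was at 78.8, 76.7 and 73.2 CPM in control and 47.1, 44.7 and 48.9 CPM in knockdown libraries, again without overlap. It fell by 0.70 ± 0.054 on the log2 scale (SE; adjusted p = 1.47e-06). Both valyl enzymes thus fell, the cytosolic one by more, and the ratio of VARS to VARS2 counts was between 4.56 and 4.88 in control and between 3.72 and 4.07 in knockdown libraries.

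HARS (ENSG00000170445), the gene of the cytosolic histidyl-tRNA synthetase, a class II enzyme, was at 133, 131 and 132 CPM in control and 68.0, 72.5 and 74.7 CPM in knockdown libraries. The control libraries were nearly identical and the knockdown libraries far below them. HARS fell by 45.6% (log2 fold change −0.88 ± 0.048, SE; adjusted p = 1.78e-07). HARS2, whose product charges histidine in mitochondria, was at 38.6, 37.0 and 39.9 CPM in control and 37.6, 41.4 and 38.9 CPM in knockdown libraries. These values overlapped (log2 fold change 0.029 ± 0.058, SE; adjusted p = 0.670). The ratio of HARS to HARS2 counts went from 3.45, 3.55 and 3.30 in control to 1.81, 1.75 and 1.92 in knockdown libraries, the largest shift among all pairs compared. The genes have similar sequences, and the sources used here do not say how reads that fit both were counted. With both summed, the counts fell by 0.62 ± 0.046 on the log2 scale (SE; adjusted p = 1.19e-06).

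HARS and HARS2 lie head to head on chromosome 5, so their start sites share one short stretch of DNA. It is shown because the genes on its sides differed in their change. The RefSeq start sites lie 85 bases apart, and the 84 bases between them (GRCh38.p14, chr5:140691371-140691454, plus strand, reading from HARS towards HARS2) are printed with copies of CCGGAAGT, the core to which ETS family factors are known to bind, in capitals on either strand. One such copy directly follows the first base of the stretch, and another ends it.
HARS and HARS2: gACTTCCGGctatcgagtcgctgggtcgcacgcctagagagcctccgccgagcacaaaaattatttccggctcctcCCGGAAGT
This element was chosen after the sequence had been seen. Outside the HARS pair, which shares the copies printed, it was found in 5 of the 28 other synthetase promoters matched and in 4.44% of all 27305 RefSeq promoters of the same 300-base length. A match in letters is a description and not a measured binding site.

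**Figure D3:**
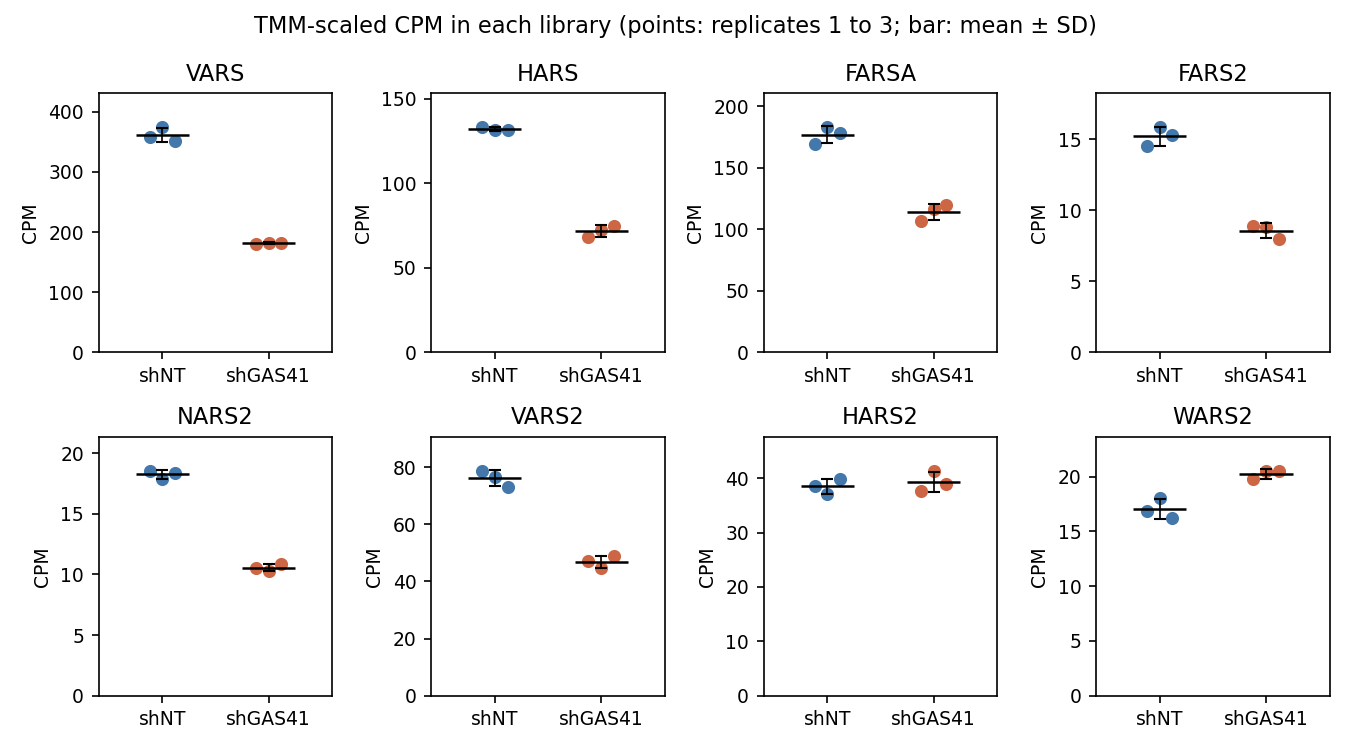
TMM-scaled CPM (vertical axes, from 0) of 8 synthetase genes in the 3 shNT and 3 shGAS41 libraries (points), with the mean and SD as bars. VARS, HARS, FARSA, FARS2, NARS2 and VARS2 are lower in all knockdown libraries, HARS2 overlaps between groups, and WARS2 is higher in all knockdown libraries.

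The phenylalanyl enzymes fell unevenly. The cytosolic enzyme is built from alpha subunits encoded by FARSA and beta subunits encoded by FARSB, whereas FARS2 encodes a single-chain mitochondrial enzyme. FARSA was at 169, 183 and 178 CPM in control and 107, 116 and 119 CPM in knockdown libraries (log2 fold change −0.63 ± 0.054, SE; adjusted p = 3.25e-06). FARSB was at 114, 114 and 117 CPM in control and 84.3, 102 and 106 CPM in knockdown libraries, a smaller fall of −0.24 ± 0.076 (SE; adjusted p = 0.0183). Neither subunit gene overlapped between groups. FARSB was lowest in knockdown library 1, without which its log2 fold change was −0.14. Its call ended without control library 2 (adjusted p = 0.0551) or 3 (0.0659), and over its alternatives the adjusted p ran from 9.56e-05 to 0.560. FARS2 was at 14.5, 15.8 and 15.3 CPM in control and 8.91, 8.82 and 7.93 CPM in knockdown libraries. It fell by 43.7% (−0.83 ± 0.080, SE; adjusted p = 7.59e-06), without overlap. The ratio of FARSB to FARS2 rose from between 7.22 and 7.82 to between 9.46 and 13.4.

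Both asparaginyl enzymes fell. NARS2, the mitochondrial gene, was at 18.6, 17.9 and 18.4 CPM in control and 10.5, 10.3 and 10.8 CPM in knockdown libraries. The spread within each group was small beside the gap, with a change of −0.79 ± 0.068 on the log2 scale (SE; adjusted p = 3.46e-06). NARS, its cytosolic counterpart, went from 320 ± 3.58 to 222 ± 12.4 CPM (mean ± SD, n = 3), or −0.53 ± 0.048 on the log2 scale (SE; adjusted p = 4.91e-06). The threonyl enzymes fell too, and here the mitochondrial gene by more. TARS2 went from 49.9 ± 2.11 to 32.6 ± 0.977 CPM (log2 fold change −0.61 ± 0.055, SE) and TARS from 382 ± 5.54 to 333 ± 20.3 CPM (−0.20 ± 0.049, SE).

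The tryptophanyl enzymes went in opposite directions. WARS, whose product is known as an interferon-inducible enzyme, was at 263, 260 and 256 CPM in control and 173, 201 and 210 CPM in knockdown libraries (log2 fold change −0.41 ± 0.065, SE; adjusted p = 0.000244). WARS2, the mitochondrial gene, was at 16.8, 18.0 and 16.3 CPM in control and 19.7, 20.5 and 20.5 CPM in knockdown libraries. WARS2 was the one synthetase gene called higher (log2 fold change 0.25 ± 0.068, SE; adjusted p = 0.00769), and it was not called against a fold change of 1.2 (adjusted p = 0.499). An antisense gene, WARS2-AS1, whose RefSeq start lies within WARS2, rose as well (0.60 ± 0.076, SE; adjusted p = 5.73e-05). The use of strand in counting is not given, so reads of WARS2 and WARS2-AS1 cannot be told apart. The ratio of WARS to WARS2 fell from between 14.4 and 15.8 to between 8.78 and 10.2.

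The seryl genes had estimates of opposite sign, and the mitochondrial one missed the threshold. SARS, with 189 ± 5.80 CPM in control libraries and 160 ± 4.40 CPM after knockdown, fell by 0.24 ± 0.044 on the log2 scale (SE; adjusted p = 0.000773). SARS2 was at 7.49, 6.39 and 6.24 CPM in control and 7.67, 7.94 and 8.16 CPM in knockdown libraries, so every knockdown library lay above every control library, the first control library only just below. Its change was not called (log2 fold change 0.24 ± 0.098, SE; adjusted p = 0.0523). It passed without control library 1 (adjusted p = 0.0132) or knockdown library 1 (0.0491), with median-ratio scaling (0.0459) and with a filter at 1 CPM (0.0444), within a range of 0.0132 to 0.534. SARS2 is thus a borderline case in these libraries.

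The remaining mitochondrial genes fell or did not pass the test. LARS2 (leucyl) had a log2 fold change of −0.50 ± 0.055 (SE), YARS2 (tyrosyl) of −0.48 ± 0.049, and AARS2 (alanyl) of −0.41 ± 0.063. Smaller falls were called for EARS2 (glutamyl, −0.34 ± 0.058), CARS2 (cysteinyl, −0.33 ± 0.072) and PARS2 (prolyl, −0.32 ± 0.090), with adjusted p-values of 0.000373, 0.00193 and 0.00873. In all 6 genes every knockdown library lay below every control library. The isoleucyl gene IARS2 was at 194, 202 and 203 CPM in control and 200, 195 and 198 CPM in knockdown libraries, with a log2 fold change of −0.018 ± 0.041 (SE). The arginyl gene RARS2 was at 80.4, 82.0 and 82.9 CPM in control and 78.8, 81.5 and 82.2 CPM in knockdown libraries (−0.017 ± 0.044, SE). Both genes overlapped between groups and varied little among the 6 libraries. MARS2, the methionyl gene, varied widely within the groups, at 18.3, 26.5 and 23.8 CPM in control and 15.7, 19.7 and 21.8 CPM in knockdown libraries. Library 1 was the lowest of each group, and the groups overlapped (log2 fold change −0.26 ± 0.15, SE; adjusted p = 0.157). Without control library 1 MARS2 was called lower (−0.39, adjusted p = 0.0161), without control library 2 or knockdown library 1 its value was −0.13 or −0.14, and over its alternatives the adjusted p ran from 0.00131 to 0.480.

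In the cytosol, genes of enzymes inside and outside the multisynthetase complex differed in how many were called. All 12 genes outside the complex fell, and their median was −0.30 on the log2 scale. Of the 8 complex genes 4 fell, DARS, MARS, LARS and IARS, with a median over the 8 of −0.14 and a largest fall of −0.29 for DARS. This difference between the gene groups was not tested. The summed CPM of the 12 genes was 3126, 3099 and 3040 in control and 2224, 2413 and 2482 in knockdown libraries, a ratio of 0.768. That of the complex genes was 2811, 2771 and 2788 in control and 2438, 2544 and 2566 in knockdown libraries, a ratio of 0.902. Neither sum overlapped between groups.

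The aspartyl gene DARS, with 230 ± 10.8 CPM in control libraries and 187 ± 5.58 CPM after knockdown, fell by 0.29 ± 0.048 on the log2 scale (SE; adjusted p = 0.000309). The methionyl gene MARS fell from 400 ± 25.6 to 341 ± 11.8 CPM, the leucyl gene LARS, whose product is also known as a leucine sensor for mTORC1, from 359 ± 8.98 to 311 ± 5.26 CPM, and the isoleucyl gene IARS from 607 ± 15.9 to 539 ± 14.2 CPM. Their log2 fold changes were −0.23, −0.21 and −0.17. These falls were small and larger than the spread between libraries. The lysyl gene KARS was at 492, 517 and 492 CPM in control and 433, 476 and 483 CPM in knockdown libraries, without overlap but short of the threshold (−0.11 ± 0.050, SE; adjusted p = 0.0768). It was called with scaling by library size alone (adjusted p = 0.0275), and its alternatives ran from 0.0189 to 0.99999. Without knockdown library 1 the log2 fold changes were −0.060 for KARS, −0.047 for RARS and −0.0035 for EPRS. The arginyl gene RARS was at 196, 203 and 215 CPM in control and 179, 197 and 199 CPM in knockdown libraries (−0.095 ± 0.055, SE; adjusted p = 0.150). EPRS, which encodes a fused glutamyl and prolyl enzyme, was at 303, 306 and 316 CPM in control and 284, 306 and 309 CPM in knockdown libraries (−0.040 ± 0.045, SE). The glutaminyl gene QARS was at 188, 186 and 169 CPM in control and 192, 175 and 177 CPM in knockdown libraries (0.0047 ± 0.056, SE). RARS, EPRS and QARS all overlapped between groups.

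The other cytosolic genes outside the complex had falls between −0.34 and −0.17. CARS, the cysteinyl gene, fell by 0.34 ± 0.079 on the log2 scale (SE; adjusted p = 0.00293) and the alanyl gene AARS fell by 0.26 ± 0.058 (SE; adjusted p = 0.00213). AARS was at 332, 305 and 283 CPM in control and 262, 250 and 255 CPM in knockdown libraries, so the control libraries varied more than the knockdown ones. GARS fell by 0.17 ± 0.058 (SE; adjusted p = 0.0213), and the tyrosyl gene YARS fell by 0.17 ± 0.055 (SE; adjusted p = 0.0173). Both were lowest in knockdown library 1, at 343 CPM for GARS and 273 CPM for YARS, and without it the log2 fold changes were −0.11 and −0.11. The call of GARS ended without control library 1 (adjusted p = 0.0606) or 2 (0.0675), and that of YARS without control library 2 (0.0561). Over all alternatives the adjusted p ranged from 0.00167 to 0.967 for GARS and from 0.000935 to 0.993 for YARS. Both catalytic classes held genes that fell and genes that were not called. Without EPRS, which has a domain of each class, 7 of 9 class I and 9 of 10 class II cytosolic genes fell, and 5 of 9 class I and 5 of 7 class II mitochondrial genes.

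Ratios between partner genes for the same amino acid were lower after knockdown for some pairs and higher for others, and no pair could pass the test. They were taken as cytosolic over mitochondrial counts within each library for 17 pairs, of which FARS2 and EPRS each enter 2. In 6 pairs every knockdown ratio lay below every control ratio, in 9 every one lay above, and CARS with CARS2 and MARS with MARS2 overlapped. The exact permutation test (two-sided, 3 against 3) gave p = 0.1 for each of the 15 pairs without overlap, the smallest value this design allows, and 0.113 after adjustment over the 17 pairs, so none can pass 0.05. For comparison, 72.3% of single genes had no overlap between groups; the share among ratios of other gene pairs was not computed. The ratio fell most for histidine (log2 change −0.91), tryptophan (−0.67) and serine (−0.48), and rose most for phenylalanine with FARSB (0.59), threonine (0.42) and glutamate (0.30).

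**Figure D4:**
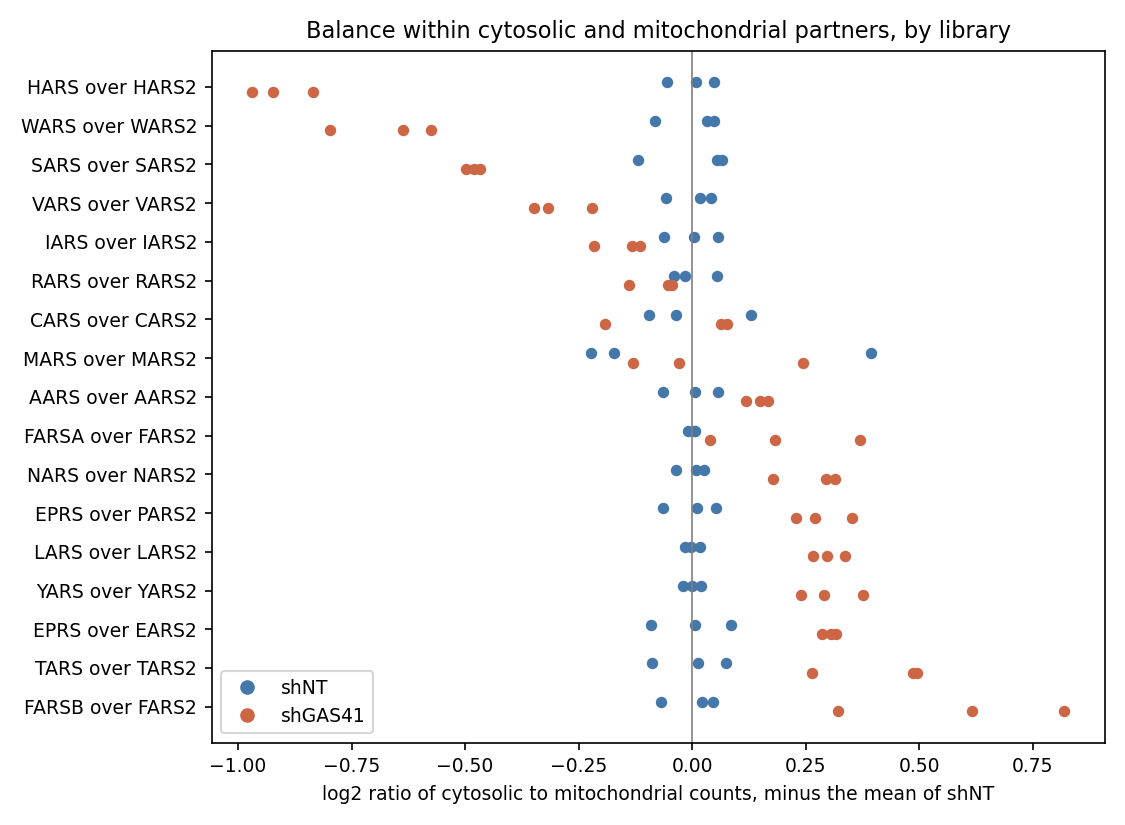
Log2 ratio of cytosolic to mitochondrial counts in each library, less the mean of the control libraries (horizontal axis), for 17 partner pairs (vertical axis), with shNT in blue and shGAS41 in orange. Knockdown points lie left of all control points in 6 pairs, from HARS over HARS2 down to RARS over RARS2, and right of them in 9.

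Other synthetase genes also start close to a gene on the opposite strand. Among the 30 genes matched to the RefSeq promoter table, 9 had another gene start on the opposite strand between 500 bases inside and 1000 bases upstream of their own start, beside the HARS pair, and 8 of these neighbours were measured. These neighbours were named for their position, after the values of the synthetases had been seen. FARS2 fell while LYRM4, which starts 57 bases away and encodes a mitochondrial iron-sulfur assembly factor, did not pass the test (0.054 ± 0.053, SE; adjusted p = 0.383). SARS2 did not fall while MRPS12, a mitochondrial ribosomal protein gene 181 bases away, fell by 0.82 on the log2 scale (adjusted p = 1.99e-06). KARS and RARS2 were not called while their neighbours TERF2IP (−0.90), a telomere protein gene, and ORC3 (−0.53), an origin recognition gene, fell. EARS2 fell while UBFD1 rose by 0.49, and WARS fell while WDR25 (−0.15, adjusted p = 0.128) was not called. TARS fell together with the transcript TARS1-DT (−0.42, adjusted p = 0.0407). These differences between neighbours were not tested.

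**Figure D5:**
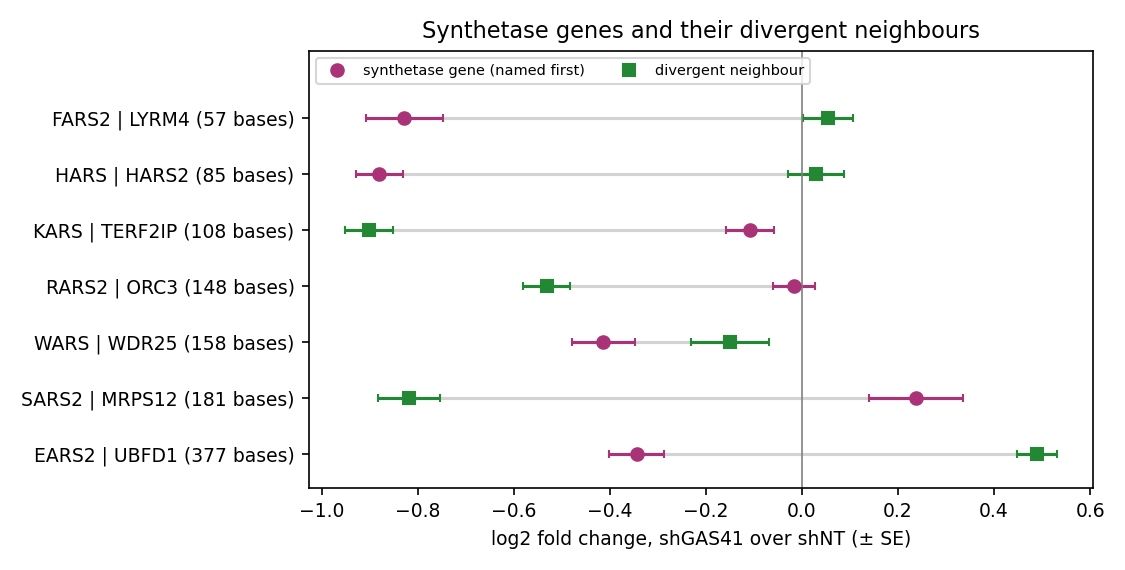
Log2 fold change of shGAS41 over shNT with its SE (horizontal axis) for 7 synthetase genes (circles) and the gene that starts in the opposite direction nearby (squares), ordered by the distance between start sites in bases. TARS with TARS1-DT and WARS2 with WARS2-AS1, where both genes changed in the same direction, are not drawn. The squares of KARS, RARS2 and SARS2 lie to the left of the circles, and those of the other 4 genes drawn to the right.

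The DNA between the start sites of FARS2 and LYRM4 (GRCh38.p14, chr6:5260951-5261006) and of SARS2 and MRPS12 (chr19:38930764-38930943) is shown on the plus strand, since the first is the nearest upstream neighbour that is no synthetase and the second holds a strong fall beside a gene that did not fall. Neither stretch holds CCGGAAGT on either strand, which says only that these letters are not in it.
FARS2 and LYRM4: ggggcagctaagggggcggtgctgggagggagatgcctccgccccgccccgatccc
SARS2 and MRPS12: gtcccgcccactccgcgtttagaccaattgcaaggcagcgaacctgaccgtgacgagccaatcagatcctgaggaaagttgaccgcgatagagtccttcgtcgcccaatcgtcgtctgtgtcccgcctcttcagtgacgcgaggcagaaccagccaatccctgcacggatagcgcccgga

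The promoters of several cytosolic genes that fell hold letters matching the element through which ATF4 is known to act. The composite ATF4 element was searched as TGATGNAA on both strands of the RefSeq promoters (250 bases before to 50 after the start), which were matched for 30 genes and not for VARS, VARS2, YARS, LARS, DARS and AARS2. It was found in 6 of 16 cytosolic promoters (37.5%), in 1 of 14 mitochondrial promoters (7.14%) and in 3.67% of all 27305 promoters. The windows of 30 bases around it are printed on the strand of the gene, with the element in capitals, to show that 6 of the 7 hold it in the same form, TGATGCAA or its reverse complement. They come from GRCh38.p14, at chr16:70289675-70289704 (AARS, minus strand), chr11:3057407-3057436 (CARS, minus), chr9:92293692-92293721 (IARS, minus), chr12:57488053-57488082 (MARS, plus), chr18:57621804-57621833 (NARS, minus), chr5:33440956-33440985 (TARS, plus) and chr12:32756076-32756105 (YARS2, minus).
AARS: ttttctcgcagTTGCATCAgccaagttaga
CARS: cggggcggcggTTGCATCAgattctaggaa
IARS: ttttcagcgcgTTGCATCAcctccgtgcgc
MARS: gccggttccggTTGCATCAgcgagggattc
NARS: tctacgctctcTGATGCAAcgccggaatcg
TARS: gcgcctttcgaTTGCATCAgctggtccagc
YARS2: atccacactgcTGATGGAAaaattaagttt
All 6 cytosolic genes with the element fell, with values between −0.53 and −0.17 on the log2 scale and a median of −0.25. Of the 10 matched cytosolic genes without it 6 fell, with a median of −0.21 and a range from −0.88 to 0.0047. HARS and FARSA, which fell most among the matched cytosolic genes, were among those without it. VARS, YARS, LARS and DARS, whose promoters were not matched, fell too. The difference between genes with and without the element was not tested, and a match in letters is not a measured binding site. The E-box CACGTG, a site of MYC and related factors, was in 4 of 30 synthetase promoters and 7.43% of all. These were 1 of 16 cytosolic and 3 of 14 mitochondrial promoters, a difference that was not tested. The NRF1 element was in 1 of 30 (MARS2) and 1.36% of all.

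The ATF4 transcript was at 295, 296 and 283 CPM in control and 285, 307 and 314 CPM in knockdown libraries, with overlap between groups (log2 fold change 0.053 ± 0.047, SE; adjusted p = 0.335). RNA libraries do not measure the amount or activity of the ATF4 protein. Of 33 measured amino acid response genes linked to ATF4, 17 fell and 6 rose, with a median of −0.22, against 34.5% and 33.6% of all tested genes. The falls of smallest p were those of SHMT2 (−0.47), which makes glycine from serine in mitochondria, PYCR1 (−0.54), which makes proline, and the transcription factor gene CEBPB (−0.99). VLDLR (1.35), a lipoprotein receptor gene, rose, as did DDIT4 (1.54) and SESN2 (0.87), whose products restrain mTORC1. Of 4 genes of the GCN2 pathway, which responds to uncharged tRNA, EIF2S1, the eIF2 alpha subunit, fell (−0.34, adjusted p = 0.000203) and IMPACT, a GCN2 antagonist, rose (0.30, adjusted p = 0.000425). The kinase gene EIF2AK4, which encodes GCN2, had a log2 fold change of 0.045 (adjusted p = 0.562) and its activator gene GCN1L1 of 0.013 (adjusted p = 0.773).

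Transcripts of several partners of the synthetases fell as well. Of the 3 scaffold genes of the multisynthetase complex, AIMP1 had a mean of 84.00 CPM in control and 36.05 CPM in knockdown libraries and fell by 1.22 ± 0.059 on the log2 scale (SE). EEF1E1 fell from 31.4 to 19.8 CPM (−0.67 ± 0.066), while AIMP2 rose from 43.4 to 49.6 CPM (0.19 ± 0.071; adjusted p = 0.0328). The groups overlapped for AIMP2, at 43.1, 45.2 and 41.9 CPM in control and 44.6, 50.4 and 53.9 CPM in knockdown libraries. AIMP1 thus fell by more on the log2 scale than any of the 36 synthetase genes. Mitochondria lack a glutaminyl synthetase of their own, and an amidotransferase converts glutamate on the tRNA instead. Of 7 measured partners of mitochondrial charging 4 fell (57.1%) and 0 rose, against 34.5% and 33.6% of all tested genes. All 7 estimates were negative. The genes that fell included the amidotransferase subunit genes QRSL1 (−0.93 ± 0.049, SE) and PET112 (−0.69 ± 0.070). GATC, another subunit gene of that enzyme, was not called and overlapped between groups (−0.12 ± 0.068, SE; adjusted p = 0.150).

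Genes that process and modify tRNAs also mostly fell, and editing and selenocysteine genes did so less often. For comparison, 34.5% of all tested genes fell and 33.6% rose. Of 30 measured genes of tRNA end processing, splicing and export 21 fell (70%) and 2 rose (6.67%), and the median was −0.35 on the log2 scale. RPP30 (−0.71) and POP7 (−0.75), which encode RNase P subunits, and TSEN15 (−0.58), of the splicing endonuclease, fell. The tRNA exportin gene XPOT (0.20) and HSD17B10 (0.19), a part of mitochondrial RNase P, rose. The other genes of that mitochondrial enzyme did not rise. TRMT10C fell (−0.27, adjusted p = 0.0190) and KIAA0391 was not called (−0.44, adjusted p = 0.0537). Of 54 measured tRNA modification genes 42 fell (77.8%) and 1 rose (1.85%), with a median of −0.38. GTPBP3 (−1.17) and MTO1 (−0.56), which modify the wobble base of mitochondrial tRNAs, and TRMT13 (−0.82) had the smallest p. The one that rose was THG1L (0.47), whose product adds a guanosine to the 5′ end of histidine tRNA. Of 9 editing and selenocysteine genes 4 fell (44.4%) and 1 rose (11.1%). In either direction 55.6% of these 9 were called, against 68.1% of all tested genes. SEPHS1 (−1.06), the D-aminoacyl-tRNA deacylase gene DTD2 (−0.64) and the selenophosphate synthetase gene SEPHS2 (−0.25) were lower. The elongation factor gene EEFSEC (0.43) was higher.

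The authors' deposited table called fewer of these genes. Of the 36 genes 5 had an adjusted p under 0.05 in the authors' deposited table, against 33.2% of all listed genes: VARS (log2 fold change −0.42), FARSA (−0.34), YARS2 (−0.28), NARS (−0.27) and WARS (−0.20). All 5 also fell in the edgeR fit described here. Of all 36 genes 28 had the same sign in both. Of the 26 that fell here 5 had a positive value in the authors' deposited table, LARS (0.022), IARS (0.074), AARS (0.093), YARS (0.099) and PARS2 (0.10). The medians of the authors' deposited table were −0.025 for the cytosolic and −0.083 for the mitochondrial genes. For 34 of the 36 genes the value in the authors' deposited table was above that of the present fit, by a median over the 36 of 0.24, and the median over all genes of the authors' deposited table was 0.12. HARS had −0.30 in the authors' deposited table (adjusted p = 0.0790), although its counts in every knockdown library were far below those of every control library. The sources used here do not give the model behind the values of the authors' deposited table.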

How the data were processed

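The authors deposited raw whole-number counts per Ensembl gene for 6 RNA sequencing libraries, together with their own log2 fold change, p-value and adjusted p-value, as the deposited file's header gives them. Per the submitters' processing notes the series used HTSeq, TopHat2 2.0.10, Bowtie2 2.1.0, CASAVA 1.8.2 and MACS 1.4.2, with build hg19; no role is stated for any of them. For strand use, annotation release and gene filter the sources used here give nothing. The 6 chromatin immunoprecipitation samples were not analysed here.

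Groups came from sample titles. Counts were tested with edgeR 4.0.16 (R 4.3.3): TMM scaling, filterByExpr (7 genes removed, 13846 tested, all 36 members kept), robust quasi-likelihood test, Benjamini-Hochberg adjustment at 0.05, no replicate block. CPM are TMM-scaled, not per gene length, so levels of different genes are not compared. The code was tested on simulated data. The SE is the absolute log2 fold change over the square root of F. The code was tested on simulated data. This SE includes the spread between libraries and not only counting error, and its median over members was 0.055. Members and lists were chosen with earlier results of these data known. Named genes are all members, YEATS4, neighbours by position and all genes of lists up to 5. In each longer list they are up to 3 per direction of smallest p. TRMT10C and KIAA0391 were added beside HSD17B10, and GATC beside QRSL1 and PET112. Symbols are those of the deposited file. Promoters are from RefSeq (GRCh38.p14), matched through current symbols. Alternatives were DESeq2 1.42.0, other scalings and filters, a minimum fold change of 1.2, leaving out each library, a replicate block, and HARS and HARS2 summed.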

Additional observations from a re-analysis of the deposited data

How the results depend on the processing

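The 12 settings other than a minimum fold change kept the count of synthetase genes called lower between 23 and 29 (23 to 26 with a library left out). Against a minimum fold change of 1.2, 2980 genes were called higher and 2919 lower; of the synthetase genes 12 were lower and 0 higher, of the cytosolic genes 5 were lower, and of the mitochondrial genes 0 were higher. The count of synthetase genes called higher, all of them mitochondrial, was 2 with median-ratio size factors, 2 with a filter at 1 CPM in 3 libraries, 2 with a replicate block, and 1 to 2 with a library left out, the second gene being SARS2. Scaling by library size alone moved the median of all genes to −0.026. With a library left out the cytosolic median lay between −0.26 and −0.19 and the mitochondrial between −0.36 and −0.32.

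The replicate block raised the genes called to 10394 and added KARS (adjusted p = 0.0189), RARS (0.0405), MARS2 (0.00131) and SARS2 (0.0181). Deviations of same-numbered libraries correlated at 0.45, 0.078 and 0.094, and libraries 2 and 3 did not correlate best with their own number, so the numbers were not taken to pair the libraries. The ratio of CARS to CARS2 (log2 change −0.017) changed sign without control library 2 (0.048) or knockdown library 1 (0.070), within −0.064 to 0.070. That of MARS to MARS2 (0.028) changed sign without control library 2 (−0.083), control library 3 (−0.057) or knockdown library 1 (−0.080), within −0.083 to 0.23. HARS2 took the sign of HARS when both were summed (−0.62), since HARS has more counts.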
